A study of Mus musculus with 6 samples.

Results

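The 10 genes described here encode MHC class I heavy chains, their light chain and proteins that load and induce them, and their RNA, not the surface protein, was measured in iNKT cells. They are 10 of the 27998 genes in the deposited count tables and were picked out of the files by symbol, from a list drawn up with earlier results of these data known. They comprise the classical heavy chains H2-K1 and H2-D1, the nonclassical (class Ib) heavy chains H2-Q4, H2-Q6, H2-Q7, H2-T22 and H2-T23, the light chain B2m, the peptide transporter subunit Tap1 and the transactivator Nlrc5. All 10 were found in the files, and all 10 passed the filter on low counts in the comparison of whole libraries.

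Invariant natural killer T (iNKT) cells are T cells whose receptor sees lipids on CD1d, and the study asked how they differ between peripheral organs. The cells came from liver, spleen and lymph node of wild-type C57BL/6 mice of 5 weeks, with no treatment named in the labels. CD8+ and B220+ cells had been removed before sorting by TCR-β and CD1d tetramer staining. Each organ gave 2 libraries, described by the authors as biological repeats, and the number of mice behind each is not in the labels. The sex of the mice is not in the labels either. Xist had 5401 to 10404 UMIs in each liver and spleen library and 0 in each lymph node library, while 4 Y-chromosome genes together had 0 UMIs in liver and spleen and 1362 and 1579 in lymph node. The organ and the sex of the mice therefore cannot be told apart in any comparison with lymph node.

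After filtering, 16532 cells remained, 2638 to 2861 per library, with a median of 1470 to 3592 UMIs (unique molecular identifiers, 1 per captured RNA molecule) per cell. Both liver libraries were deeper (10870838 and 9011285 UMIs kept) than the other 4 libraries (4758138 to 5427699). Any 2 libraries shared 6 to 20 cell barcodes. Markers of the sorted cells were present in every library (Cd3d, Cd3e, Cd3g and Zbtb16 summed to 2875 to 4245 CPM, counts per 1000000 of all kept UMIs), and 91.9% to 96.9% of cells held UMIs of at least 2 of these genes. B cell markers summed to 1.80 to 10.9 CPM and myeloid markers to 131 to 277. Some markers set the liver libraries apart. The 5 erythroid markers summed to 362 and 583 CPM in liver against at most 0.210 elsewhere. The 3 NK cell markers summed to 93.0 and 115 CPM in liver, 43.3 and 39.1 CPM in spleen and 8.39 and 9.88 CPM in lymph node. Almost all of these NK marker UMIs were Klre1, and Eomes was at 0 in both liver libraries. Mitochondrial genes held 2.79% and 2.85% of UMIs in liver and 4.27% to 5.26% elsewhere. The part of these in the liver differences below was not tested. With the 91 cells that carried B cell or myeloid markers left out, the numbers of members called below were the same in all 3 organ comparisons.

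Class I heavy chains pair with B2m in the endoplasmic reticulum and are loaded with peptides that the TAP transporter brings in from the cytosol. The classical molecules present these peptides to CD8 T cells, while several class Ib molecules are ligands of receptors on natural killer and T cells. Almost all nucleated cells express the classical genes. Interferons raise most genes of the pathway, through interferon-stimulated response elements and, via NLRC5, through the X and Y boxes of class I promoters.

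Promoter sequences are shown first, since the heavy chain genes share ancestry but did not behave alike across the organs. The 250 bases before each start were taken from a set of RefSeq promoters on GRCm38.p6, in which 9 of the 10 genes were matched, and 7 are printed here 5′ to 3′ on the strand of the gene. Capitals mark matches, on either strand, to the interferon-stimulated response element (GAAA, any 2 bases, GAAA), to enhancer A (a palindromic site for NF-kB, the first run of capitals in H2-K1), to an X2 box (TGACGC), to the related letters TGACGT and to the Y box core ATTGG. No match overlaps another. H2-K1 was read at chr17:34000348-34000597 (minus strand), H2-D1 at chr17:35262844-35263093 (plus strand), H2-Q6 at chr17:35424600-35424849 (plus strand) and H2-Q7 at chr17:35438905-35439154 (plus strand). For the genes with an exact match to the response element letters, H2-T22 was read at chr17:36042743-36042992 (minus strand). H2-T23 was read at chr17:36032702-36032951 (minus strand) and B2m at chr2:122147437-122147686 (plus strand).
H2-K1: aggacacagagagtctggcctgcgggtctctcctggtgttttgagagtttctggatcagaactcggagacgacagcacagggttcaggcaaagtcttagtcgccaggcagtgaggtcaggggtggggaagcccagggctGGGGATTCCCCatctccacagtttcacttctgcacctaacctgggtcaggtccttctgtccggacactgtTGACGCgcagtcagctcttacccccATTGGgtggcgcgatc
H2-D1: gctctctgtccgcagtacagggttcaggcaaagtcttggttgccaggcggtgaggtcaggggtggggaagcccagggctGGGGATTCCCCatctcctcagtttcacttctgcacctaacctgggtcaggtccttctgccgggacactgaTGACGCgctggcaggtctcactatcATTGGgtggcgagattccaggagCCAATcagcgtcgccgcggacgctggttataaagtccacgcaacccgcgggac
H2-Q6: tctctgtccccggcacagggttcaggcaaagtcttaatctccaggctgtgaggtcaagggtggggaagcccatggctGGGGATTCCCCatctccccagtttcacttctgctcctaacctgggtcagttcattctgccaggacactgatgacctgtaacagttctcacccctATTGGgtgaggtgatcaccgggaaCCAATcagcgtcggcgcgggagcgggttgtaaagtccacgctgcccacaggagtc
H2-Q7: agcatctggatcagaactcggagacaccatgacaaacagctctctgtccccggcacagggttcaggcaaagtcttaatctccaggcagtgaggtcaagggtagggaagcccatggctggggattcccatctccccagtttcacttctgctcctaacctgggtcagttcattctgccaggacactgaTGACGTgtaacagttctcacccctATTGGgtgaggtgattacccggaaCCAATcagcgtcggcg
H2-T22: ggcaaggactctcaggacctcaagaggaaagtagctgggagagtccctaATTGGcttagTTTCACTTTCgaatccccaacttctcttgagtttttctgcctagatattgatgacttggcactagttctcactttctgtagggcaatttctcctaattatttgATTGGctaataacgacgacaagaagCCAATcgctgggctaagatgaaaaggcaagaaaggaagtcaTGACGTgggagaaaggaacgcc
H2-T23: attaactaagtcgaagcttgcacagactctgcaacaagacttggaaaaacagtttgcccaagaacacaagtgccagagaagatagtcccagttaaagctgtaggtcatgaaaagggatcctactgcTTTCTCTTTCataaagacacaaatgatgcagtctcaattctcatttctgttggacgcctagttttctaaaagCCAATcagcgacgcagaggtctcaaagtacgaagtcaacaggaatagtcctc
B2m: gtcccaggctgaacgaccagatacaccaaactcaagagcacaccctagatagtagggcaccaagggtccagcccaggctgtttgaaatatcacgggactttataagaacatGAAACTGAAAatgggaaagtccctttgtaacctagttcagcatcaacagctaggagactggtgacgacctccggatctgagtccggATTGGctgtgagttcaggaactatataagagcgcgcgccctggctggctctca

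The full enhancer A stood in 10 of 32851 RefSeq promoters of this length (0.0304%), and H2-K1, H2-D1 and H2-Q6 were among them. H2-K1 has 2 start sites there. From the one printed, enhancer A lay at −111 to −101, and from the other at −125 to −115. In H2-D1 it lay at −171 to −161. Positions are counted from the base before the RefSeq start, which the annotation places differently along the 2 genes. The X2 box letters stood in 6.12% of promoters, among them H2-K1 and H2-D1, and TGACGT in 6.47%, among them H2-Q4, H2-Q7 and H2-T22. The exact letters of the response element stood in 2.98% of promoters. They were found in H2-T22 (−191 to −182), H2-T23 (−124 to −115) and B2m (−139 to −130), but not in the other 6. The search allowed no mismatch, so it does not show that those 6 lack such an element. The printed windows of H2-K1, H2-D1, H2-Q6 and H2-Q7 hold tttcacttct, which begins like the element but does not match it in full. The Y box core is common (33.8% of promoters) and stood in all 9. The gamma-activated site TTCNNNGAA, found in 7.02% of promoters, was in none of the 9. These matches are letters in a window and were not tested as binding sites.

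Of the members, 8 lie on chromosome 17, in the mouse MHC, B2m on chromosome 2 and Nlrc5 on chromosome 8 (GRCm38, GENCODE vM21). The counts come from 3′ ends, so the end of the longest protein-coding transcript of each member was checked. Its last 500 bases were compared with the GENCODE transcripts of all other genes in stretches of 100 bases. Other annotated ends of the members were not checked, so the shares below hold for these ends only. None of the stretches of H2-K1, H2-D1, H2-Q7, B2m, Tap1 or Nlrc5 occurred in another gene. Shared stretches made up 6.23% in H2-Q6, 6.48% in H2-Q4 and 9.73% in H2-T23. They made up 21.2% in H2-T22, all of them with H2-T10, a symbol that the count tables do not list, so UMIs of the 2 genes may be mixed in that row. On the opposite strand Tap1 overlaps Psmb9, B2m overlaps Patl2, Nlrc5 overlaps 9330175E14Rik, H2-Q4 overlaps Gm11131, and H2-T22 and H2-T23 both overlap A930015D03Rik. Nlrc5 also overlaps Mir7072 on its own strand.

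The first comparison asked whether class I expression of iNKT cells differs between organs. UMIs were summed over all cells of a library and are given as CPM, here per 1000000 UMIs of the tested genes with TMM scaling. Most members were higher in liver than in spleen and lymph node, while H2-D1 and B2m did not pass the test in any pair of organs. In liver against spleen 7 of the 10 members passed an adjusted p of 0.05 in edgeR's quasi-likelihood test, all higher in liver, where 25.7% of the 10173 genes tested were called in either direction and 12.7% as higher. In liver against lymph node 8 passed, all higher in liver, beside a background of 37.6% in either direction and 18.0% higher. In spleen against lymph node 3 passed, all higher in spleen, beside 18.3% and 7.97%. The 3 comparisons share libraries and are not independent. Fewer cells with a transcript and less of it per cell cannot be told apart in these sums, and the counts per cell are given further on.

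**Figure D1:**
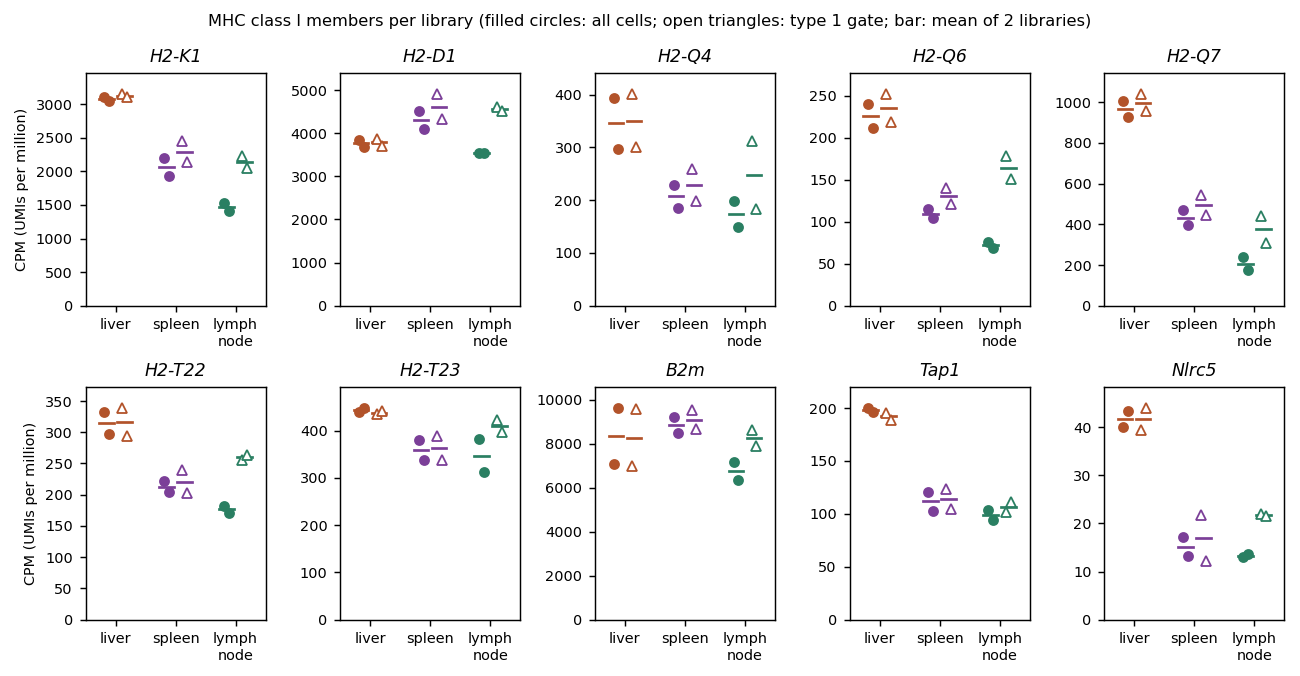
CPM of the 10 members (linear y axis from 0, 1 panel per gene) in each of the 2 libraries of liver, spleen and lymph node. Filled circles are sums over all cells, open triangles sums over cells of the type 1 gate and bars the means of 2 libraries; H2-Q7 stood at 926 and 1004 CPM in liver against 177 and 238 in lymph node over all cells, while the H2-D1 libraries lay between 3539 and 4523.

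H2-K1 (ENSMUSG00000061232, chromosome 17, 33996017 to 34000347, minus strand) encodes the heavy chain of H2-K. It stood at 3102 and 3047 CPM in liver, 2201 and 1929 in spleen and 1525 and 1407 CPM in lymph node. The 3 organs did not overlap, and the liver libraries were the highest. The log2 fold change was 0.57 ± 0.12 (SE) over spleen (edgeR, adjusted p 0.000878) and 1.07 ± 0.12 over lymph node (edgeR, adjusted p 2.32e-08). Spleen was also above lymph node, by 0.49 ± 0.12 (edgeR, adjusted p 0.00401), a call that was lost without spleen replicate 1 (adjusted p 0.104) or without lymph node replicate 2 (adjusted p 0.105).

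H2-D1 (ENSMUSG00000073411, chromosome 17, 35262730 to 35267499, plus strand), the heavy chain of H2-D, stood at 3846 and 3682 CPM in liver, 4523 and 4109 in spleen and 3549 and 3539 CPM in lymph node. Here spleen rather than liver was the highest organ. No pair of organs passed the test. Liver over spleen gave a log2 fold change of −0.20 ± 0.12 and liver over lymph node one of 0.09 ± 0.12 (edgeR, adjusted p 0.248 and 0.611), and spleen exceeded lymph node by 0.28 ± 0.12 (adjusted p 0.117). The 95% interval of the fold was 0.736 to 1.03 for liver over spleen and 0.897 to 1.26 for liver over lymph node, so a 2-fold difference lay outside both. H2-D1 was called in none of the 20 settings tried for whole libraries.

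Within each library, H2-D1 had 1.24 and 1.21 times the UMIs of H2-K1 in the liver libraries, 2.06 and 2.13 times in those of spleen and 2.33 and 2.52 times in those of lymph node. This ratio does not depend on the scaling of libraries. The 2 classical genes thus stood in a different proportion in liver, although the capture of either transcript is unknown and the ratio is read only across libraries.

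Among the class Ib genes, H2-Q7 (ENSMUSG00000060550, chromosome 17, 35439155 to 35443773, plus strand), a Qa-2 heavy chain, differed most. It stood at 1004 and 926 CPM in liver, 469 and 397 in spleen and 238 and 177 CPM in lymph node. Liver was 2.23-fold above spleen (95% interval 1.87 to 2.66; log2 1.16 ± 0.13, edgeR adjusted p 1.26e-07) and 4.65-fold above lymph node (3.87 to 5.59; log2 2.22 ± 0.14, adjusted p 2.63e-14). Spleen was 2.09-fold above lymph node (log2 1.06 ± 0.13, edgeR adjusted p 3.95e-07). Its neighbour H2-Q6 (ENSMUSG00000073409, chromosome 17, 35424850 to 35430055, plus strand), another Qa-2 heavy chain, had the same order, with 240 and 212 CPM in liver, 115 and 105 in spleen and 76.1 and 68.5 CPM in lymph node. Liver exceeded spleen by log2 1.04 ± 0.12 and lymph node by 1.64 ± 0.12, and spleen exceeded lymph node by 0.60 ± 0.13 (edgeR, adjusted p 1.04e-07, 1.09e-12 and 0.000813). Each of these 6 calls on H2-Q6 and H2-Q7 was made in all 20 settings.

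The other 3 class Ib genes moved less. H2-Q4 (ENSMUSG00000035929, chromosome 17, 35379617 to 35385290, plus strand), which encodes the secreted Qb-1 molecule, stood at 395 and 297 CPM in liver, 230 and 185 in spleen and 198 and 148 CPM in lymph node. Liver was the highest, by log2 0.74 ± 0.16 over spleen and 1.00 ± 0.16 over lymph node (edgeR, adjusted p 0.00278 and 0.000101). H2-T22 (ENSMUSG00000056116, chromosome 17, 36037128 to 36042747, minus strand), a ligand of some γδ T cells, stood at 332 and 298 CPM in liver, 222 and 204 in spleen and 183 and 171 CPM in lymph node. Liver was above spleen by log2 0.56 ± 0.11 and above lymph node by 0.83 ± 0.12 (edgeR, adjusted p 0.000432 and 5.58e-07). H2-T23 (ENSMUSG00000067212, chromosome 17, 36029773 to 36032855, minus strand), the Qa-1 heavy chain and ligand of CD94/NKG2 receptors, stood at 440 and 447 CPM in liver, 380 and 337 in spleen and 382 and 312 CPM in lymph node. Its difference passed over lymph node, by log2 0.35 ± 0.12 (edgeR, adjusted p 0.0185). Over spleen it was 0.31 ± 0.12 (adjusted p 0.0544) and was called in 4 of 20 settings, among them without TMM scaling (adjusted p 0.0114) and with the replicate block (adjusted p 0.0197). The call over lymph node was lost without lymph node replicate 2 (adjusted p 0.311) and with every cell thinned to 1000 UMIs (adjusted p 0.181).

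B2m (ENSMUSG00000060802, chromosome 2, 122147686 to 122153083, plus strand), the light chain of all these molecules, stood at 7066 and 9614 CPM in liver, 9200 and 8495 in spleen and 7187 and 6343 CPM in lymph node. The 2 liver libraries lay further apart than the organ means, and the liver values overlapped those of both other organs. No pair passed (log2 −0.09 ± 0.14, 0.30 ± 0.14 and 0.39 ± 0.14, edgeR adjusted p 0.696, 0.0915 and 0.0533). Liver over lymph node passed in 3 of 20 settings, without liver replicate 1 (log2 0.50, adjusted p 0.00955), without TMM scaling (0.36, adjusted p 0.0201) and with no filter on low counts (0.34, adjusted p 0.0272), and spleen over lymph node passed in 7 of 20 settings.

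Tap1 (ENSMUSG00000037321, chromosome 17, 34187553 to 34197225, plus strand), a subunit of the peptide transporter, stood at 200 and 196 CPM in liver, 121 and 103 in spleen and 103 and 93.9 CPM in lymph node. Liver was above spleen by log2 0.82 ± 0.12 and above lymph node by 1.00 ± 0.12 (edgeR, adjusted p 5.67e-06 and 3.53e-08), with no call between the other two. Nlrc5 (ENSMUSG00000074151, chromosome 8, 94434356 to 94527272, plus strand), the transactivator of class I genes, was counted in 295 and 264 UMIs in liver and 45 to 65 per library elsewhere. Liver libraries stood at 40.0 and 43.4 CPM, spleen libraries at 17.2 and 13.2 and lymph node libraries at 13.0 and 13.7. Liver was above spleen by log2 1.45 ± 0.19 and above lymph node by 1.64 ± 0.19 (edgeR, adjusted p 9.68e-07 and 2.37e-08), while spleen and lymph node differed by 0.19 ± 0.23 (adjusted p 0.623). The 4 liver calls on Tap1 and Nlrc5 were made in all 20 settings.

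**Figure D2:**
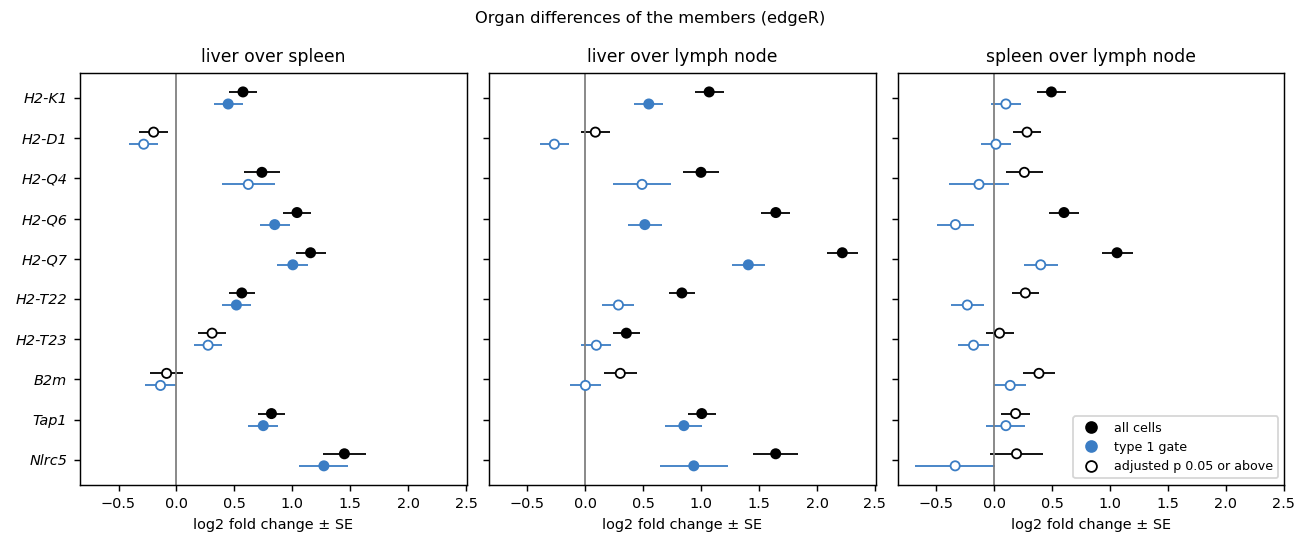
log2 fold changes with SE (x axis) of the 10 members (y axis) for liver over spleen, liver over lymph node and spleen over lymph node, in sums over all cells (black) and over cells of the type 1 gate (blue). Filled points passed an adjusted p of 0.05; in spleen over lymph node 3 black points and no blue point are filled.

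The UMIs of the 5 class Ib genes were next divided by those of the 2 classical genes in each library. The liver libraries had ratios of 0.347 and 0.324, those of spleen 0.210 and 0.203 and those of lymph node 0.212 and 0.177 (means 0.336 ± 0.0164, 0.207 ± 0.00499 and 0.195 ± 0.0246, SD, n = 2). Both liver libraries were above the other 4, and spleen and lymph node overlapped. As the share of class Ib among heavy chain UMIs, this was 25.8% and 24.5% in liver and 15.1% to 17.5% elsewhere. Without H2-Q6 and H2-Q7 the mean ratios of the 3 organs were 0.161, 0.122 and 0.139, so these 2 genes carried much of the difference. Over H2-K1 alone it was 0.746, 0.640 and 0.665, a smaller gap between the organs, since H2-K1 was itself higher in liver. H2-Q7 had 0.324 and 0.304 times the UMIs of H2-K1 in liver libraries, 0.213 and 0.206 times in those of spleen and 0.156 and 0.126 times in lymph node libraries. No p is given for these ratios, whose genes were chosen with the organ differences known.

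**Figure D3:**
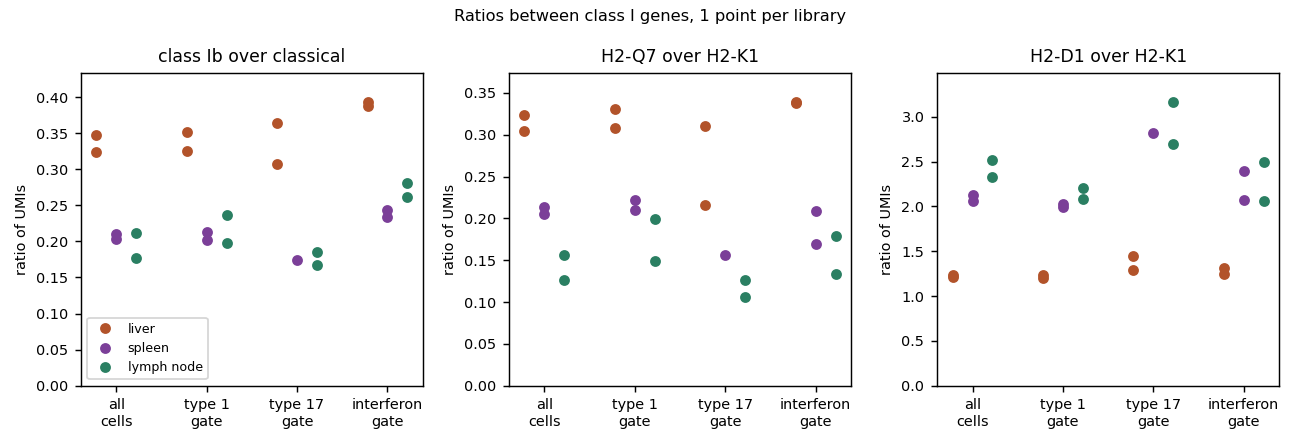
Ratios of UMIs (y axes, from 0) of class Ib over classical genes, H2-Q7 over H2-K1 and H2-D1 over H2-K1, 1 point per library, over all cells and over cells of 3 gates (x axis). In each of the 4 cell sets the liver libraries have the highest class Ib ratios (0.324 and 0.347 over all cells) and the lowest ratios of H2-D1 to H2-K1 (1.21 and 1.24).

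To see how the UMIs were spread over cells, each cell was thinned at random to 1000 UMIs, ribosomal transcripts included, and 1075 shallower cells were left out. H2-K1 had a mean of 2.12 and 2.11 UMIs per thinned cell in liver, 1.67 and 1.42 in spleen and 1.19 and 1.08 UMIs in lymph node. Its quartiles over cells were 1 and 3 UMIs in both liver libraries and 0 and 2 in both lymph node libraries, so that both quartiles lay lower in lymph node. H2-D1 had means of 2.63 and 2.54 for the liver libraries, 3.38 and 3.05 for spleen and 2.70 and 2.73 for lymph node. Cells of the liver libraries held 0.700 and 0.630 UMIs of H2-Q7 on average, spleen cells 0.363 and 0.303 and lymph node cells 0.187 and 0.139.

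The variance over cells was 1.15 to 1.26 times the mean for H2-K1 in the 6 libraries, 1.16 to 1.39 times for H2-D1 and 1.28 to 1.59 times for B2m, where counting alone gives a value near 1. The highest of these stood in lymph node for all 3 genes. At the low counts of H2-T22, Tap1 and Nlrc5 this ratio is little moved by a spread between cells, and it is not read for them.

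**Figure D4:**
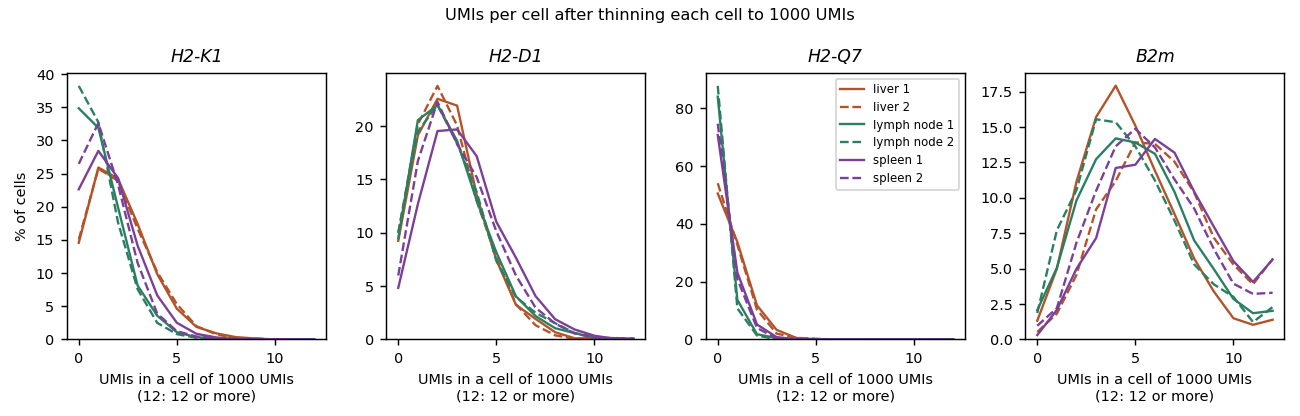
Share of cells (y axis, %) with each number of UMIs (x axis) of H2-K1, H2-D1, H2-Q7 and B2m after thinning each cell to 1000 UMIs, 1 line per library. The H2-K1 lines of lymph node lie to the left of those of liver (means 1.08 and 1.19 against 2.11 and 2.12), while the H2-D1 lines of these organs lie together.

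The organs hold different kinds of iNKT cells, so the comparison was repeated within a gate. Cells of the type 1 gate had at least 2 of the genes Tbx21, Il2rb, Cxcr3, Ccl5, Nkg7, Klrb1c, Klrd1 and Klrk1 among their 1000 thinned UMIs and met neither the type 17 nor the emigrant gate. A gate is a range and not a cell type, and 287 to 682 cells per library lay at its limit of 2 genes. It took 2374 and 2418 cells in liver, 1965 and 1858 in spleen and 591 and 529 cells in lymph node. Among these cells liver was above spleen in 6 of 10 members (21.6% of 9523 genes called, 10.7% as higher) and above lymph node in 5 of 10 (17.8% and 7.63%), and spleen against lymph node gave 0 of 10 (5.96% and 1.67%).

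In type 1 gate cells H2-Q7 stood at 1039 and 955 CPM in liver, 546 and 448 in spleen and 443 and 307 CPM in lymph node. Liver remained above both, by log2 1.00 ± 0.13 over spleen and 1.41 ± 0.14 over lymph node (edgeR, adjusted p 2.49e-07 and 1.66e-10), while spleen over lymph node was 0.40 ± 0.15 (adjusted p 0.0985; called in 6 of 13 settings). H2-K1 stood at 3144 and 3103 CPM in liver, 2454 and 2131 in spleen and 2220 and 2052 CPM in lymph node, so that spleen and lymph node now overlapped. Liver was above them by log2 0.45 ± 0.12 and 0.55 ± 0.13 (edgeR, adjusted p 0.00705 and 0.00112), a call lost without spleen replicate 2 (adjusted p 0.184) for the first and without lymph node replicate 2 (adjusted p 0.0715) for the second. Tap1 was higher in liver by log2 0.75 ± 0.13 over spleen and 0.85 ± 0.16 over lymph node (edgeR, adjusted p 2.09e-05 and 5.43e-05).

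Nlrc5 in this gate was counted in 243 and 223 UMIs in liver, 56 and 27 in spleen and 15 and 13 UMIs in lymph node. Liver exceeded spleen by log2 1.27 ± 0.21 (edgeR, adjusted p 9.99e-06). Over lymph node the difference was 0.94 ± 0.29 (adjusted p 0.0182), and it was called in 8 of 13 settings. With at least 3 genes of the gate it was not called (edgeR, adjusted p 0.203). H2-Q6 had a log2 fold change of 0.85 ± 0.13 over spleen and 0.51 ± 0.15 over lymph node (edgeR, adjusted p 2.07e-06 and 0.00983). The latter was called in 8 of 13 settings, but not with at least 3 genes of the gate (log2 0.29, edgeR adjusted p 0.321). H2-Q4 did not pass (0.62 ± 0.23 over spleen and 0.49 ± 0.25 over lymph node, edgeR adjusted p 0.0938 and 0.242), but was called in 10 and 6 of 13 settings. H2-T22 passed over spleen (log2 0.52 ± 0.12, edgeR adjusted p 0.00181; 0.107 without spleen replicate 2). H2-D1 was lower in liver in each pair without passing, by −0.28 ± 0.13 over spleen and −0.27 ± 0.13 over lymph node (edgeR, adjusted p 0.0977 and 0.142). It was called lower in 2 and 1 of 13 settings, over lymph node with at least 3 genes of the gate (log2 −0.39, edgeR adjusted p 0.0426).

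The gate gave other differences of spleen from lymph node than whole libraries. For H2-K1 this log2 difference was 0.10 ± 0.13 in the gate and 0.49 ± 0.12 over all cells, and for H2-Q6 it was −0.33 ± 0.16 and 0.60 ± 0.13. These pairs share cells, and the difference between them was not tested. The 0 of 10 calls in the gate came with 2 members at an unadjusted p under 0.05 in edgeR, and DESeq2 also called 0. In the ratio of class Ib to classical UMIs spleen and lymph node again overlapped, liver being the highest organ with 0.351 and 0.325, before lymph node with 0.236 and 0.198 and spleen with 0.214 and 0.202.

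Cells of the type 17 gate had at least 2 of 8 genes, which included Il23r, Il17re, Ccr6, Tmem176a, Tmem176b, Aqp3 and Pxdc1, and met neither of the other gates. There were 396 and 500 of them in the lymph node libraries but only 11 and 12 in liver and 18 in spleen replicate 1, and spleen replicate 2, with 9, was left out. At the limit of 2 genes lay 231 and 298 of them in lymph node, 10 and 9 in liver and 12 in spleen replicate 1. In the same 5 libraries, most members were lower in type 17 gate cells than in type 1 gate cells. With library as a block, 8 of 10 members were lower and 0 higher (12.0% of 6482 genes called, 7.41% as lower). CPM here are over the genes tested in this comparison with its own TMM scaling, so they differ from those above for the same cells, and the same holds for the next comparisons of cell sets. H2-Q7 stood at 679 and 380 CPM in the type 17 gate against 1173 and 1065 in the type 1 gate in liver, at 204 against 597 in spleen and at 153 and 112 against 487 and 337 in lymph node. It was lower in all 5 libraries, by log2 −1.49 ± 0.14 (edgeR, adjusted p 8.39e-25).

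H2-K1 was lower in the type 17 gate in 5 of 5 libraries, by log2 −0.98 ± 0.10 (edgeR, adjusted p 6.54e-20). In lymph node, where the gate holds most cells, it stood at 1214 and 1056 CPM against 2443 and 2253. H2-D1 fell by 0.60 ± 0.09 and B2m by 0.71 ± 0.09 on the log2 scale (edgeR, adjusted p 3.69e-09 and 1.56e-14), each in 5 of 5 libraries. H2-T22 had a log2 difference of −1.10 ± 0.16 and H2-Q4 of −0.99 ± 0.15 (edgeR, adjusted p 9.80e-11 and 8.76e-09).

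H2-Q6 had the largest fitted difference among the members, with 20 and 15 UMIs in the lymph node type 17 gate (36.5 and 24.3 CPM) against 122 and 91 in the type 1 gate (196 and 166 CPM). The log2 difference was −2.34 ± 0.23 (edgeR, adjusted p 9.38e-23). It was smaller in the liver libraries, at −0.68 and −1.23 on the log2(CPM + 1) scale on 6 and 3 UMIs in the type 17 gate, against −2.39 and −2.72 in lymph node, and in liver it was smaller than that of H2-Q7 (−0.79 and −1.48). Nlrc5 had −1.80 ± 0.53 (edgeR, adjusted p 0.00848) on 0 to 4 UMIs per library in the type 17 gate, a call lost without either lymph node library (adjusted p 0.161 and 0.178). Tap1 (−0.54 ± 0.20, adjusted p 0.0509) and H2-T23 (−0.25 ± 0.12, adjusted p 0.195; higher in 2 of 5 libraries) did not pass. With lymph node libraries alone, a setting added after the data were seen, 9 of 10 passed, H2-T23 among them (log2 −0.33, edgeR adjusted p 0.0122), and Tap1 did not (adjusted p 0.0672).

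Organ differences within the type 17 gate could be tested for 6 members among 841 genes. H2-K1 (log2 1.07 ± 0.19, edgeR adjusted p 1.16e-06) and H2-Q7 (2.29 ± 0.42, adjusted p 2.07e-06) were higher in liver than in lymph node, beside 14.3% of genes called (6.90% as higher). Both rest on 11 and 12 liver cells with 74 and 51 UMIs of H2-K1 and 23 and 11 of H2-Q7. Without liver replicate 1 neither passed (log2 0.60 and 1.49, adjusted p 0.366 and 0.171). The comparisons with the single spleen library, of 18 cells, which is assumed to vary like the libraries of the other organs, gave 0 of 6 calls (2.85% of genes in liver against spleen, 2.02% as higher, and 3.09% in spleen against lymph node, 0.832% as higher), with 2 and 0 members at an unadjusted p under 0.05 in edgeR and 0 calls in DESeq2. H2-D1 had 1.45 and 1.29 times the UMIs of H2-K1 in the liver cells of this gate, 2.82 times in those of spleen and 2.69 and 3.17 times in those of lymph node.

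The emigrant gate asked for 2 of 4 genes, which included Ccr7, Lef1 and S1pr1, genes of T cells that leave the thymus and circulate. It took 19 and 17 cells in spleen and 33 and 23 in lymph node, nearly all of them at the limit of 2 genes, and the liver libraries, with 1 and 3 cells, were left out. Against type 1 gate cells, 5 of the 9 members tested were lower and 0 higher (3.23% of 4638 genes called, 2.11% as lower). H2-K1 was lower in 4 of 4 libraries, by log2 −0.86 ± 0.14 (edgeR, adjusted p 2.89e-05), at 1142 and 1164 CPM against 2671 and 2313 in spleen and 1525 and 1457 against 2403 and 2204 in lymph node. H2-D1 (−0.56 ± 0.12), B2m (−0.49 ± 0.11) and H2-Q7 (−1.16 ± 0.25) also passed (edgeR, adjusted p 0.00116, 0.00261 and 0.00207). H2-Q6 passed (−2.19 ± 0.53, edgeR adjusted p 0.00776) on 0 to 3 UMIs per library, a call made in 4 of 9 settings and lost, among others, with DESeq2 (adjusted p 0.105), with thinned UMIs (0.338) and without lymph node replicate 1 (0.134). Without spleen replicate 1 or without spleen replicate 2 only 3 members passed, B2m being lost in the first case (adjusted p 0.0619), H2-Q7 in the other (adjusted p 0.0566) and H2-Q6 in both.

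Class I genes were then compared between cells inside and outside an interferon gate (at least 2 of Isg15, Ifit1, Ifit3, Ifit3b, Rsad2, Usp18, Cmpk2 and Oasl1). The gate took 88 to 143 cells per library, 54 to 91 of them at its limit, and each library had both sides. Inside the gate 8 of 10 members were higher and 0 lower (3.83% of 8462 genes called, 2.86% as higher). H2-T22 rose most among the members, from 321 and 285 to 619 and 548 CPM in liver, from 212 and 190 to 388 and 387 in spleen and from 172 and 160 to 321 and 350 in lymph node. All 6 libraries moved the same way, by 0.87 to 1.13 on the log2(CPM + 1) scale, and the fitted log2 difference was 0.96 ± 0.08 (edgeR, adjusted p 2.99e-30).

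H2-T23 was higher in 6 of 6 libraries, by log2 0.65 ± 0.07 (edgeR, adjusted p 5.25e-19), with per-library differences from 0.22 to 0.95. Tap1 stood at 119 to 333 CPM inside and 93.3 to 195 outside (log2 0.68 ± 0.11, edgeR adjusted p 1.15e-08). H2-Q4 rose by 0.54 ± 0.09 (edgeR, adjusted p 3.85e-08). B2m, H2-D1 and H2-K1 rose in 6 of 6 libraries by smaller amounts, 0.30 ± 0.03, 0.25 ± 0.04 and 0.24 ± 0.04 (edgeR, adjusted p 1.50e-16, 1.53e-09 and 2.07e-06).

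The Qa-2 genes, which differed most between organs among the class Ib genes, had the smallest differences of the class Ib genes here. H2-Q7 had a log2 difference of 0.26 ± 0.07 (edgeR, adjusted p 0.00434) with 5 of 6 libraries higher, and the call was lost in 4 of 12 settings, among them without liver replicate 2 (adjusted p 0.107) and with thinned UMIs (log2 0.07, adjusted p 0.950). H2-Q6 had 0.21 ± 0.12 (adjusted p 0.565). Nlrc5 had 0.67 ± 0.25 (adjusted p 0.152) on 3 to 18 UMIs per library inside the gate. Inside the gate the class Ib ratio was 0.394 and 0.388 for the liver libraries, 0.243 and 0.234 for spleen and 0.262 and 0.281 for lymph node, in each library above the value outside (0.345 and 0.320, 0.208 and 0.200, 0.206 and 0.173).

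Whether the effect of the gate differed between organs was tested as an interaction, a test added after the data were seen. It called 0 of 10 members (0.189% of 8462 genes), with the lowest adjusted p at 0.568 for H2-K1 in edgeR. Of all genes 417 had an unadjusted p under 0.05, and the members among them were H2-K1, H2-T23, H2-Q4, H2-Q7 and B2m (p 0.00495, 0.00853, 0.0167, 0.0305 and 0.0376). In each of these the fitted effect was highest in lymph node, for H2-K1 at log2 0.44 against 0.17 in liver and 0.13 in spleen. With the interferon gate cells left out, 8, 8 and 3 members were called between the organs in place of 7, 8 and 3.

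**Figure D5:**
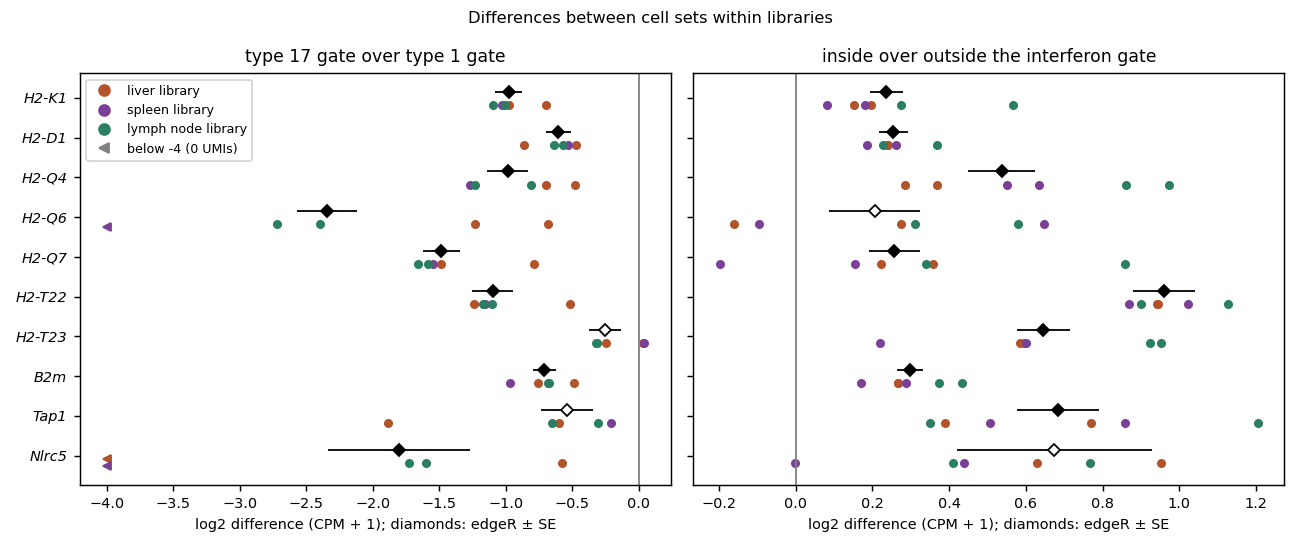
log2 differences (x axis) of the 10 members (y axis) between the type 17 and type 1 gates and between cells inside and outside the interferon gate. Coloured points are single libraries on log2(CPM + 1), arrowheads at the left edge libraries with 0 UMIs and diamonds the edgeR estimates with SE, filled at an adjusted p under 0.05; H2-T22 has −1.10 between the type 17 and type 1 gates and 0.96 for the interferon gate.

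Other genes of the pathway were followed as lists. All 5 immunoproteasome genes, whose products cut peptides for class I, were higher in liver (median log2 0.59) and in spleen (0.56) than in lymph node, and edgeR called 0 of 5 between liver and spleen (median −0.02; 1 at an unadjusted p under 0.05, 0 called by DESeq2), beside 25.7% of all genes. Over all genes tested the median was within 0.02 of 0 in these 3 comparisons, and the share called as higher was 18.0% in liver and 7.97% in spleen against lymph node. Psmb9 ranged from 384 to 435 CPM in liver, 327 to 354 in spleen and 225 to 236 in lymph node (log2 0.83 ± 0.12 for liver over lymph node, edgeR adjusted p 7.10e-07).

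Among 7 peptide loading genes, Calr, a chaperone of the loading complex, was higher in liver than in spleen (log2 0.79 ± 0.13, edgeR adjusted p 4.86e-05) and lymph node (1.12 ± 0.13, adjusted p 6.74e-08). Pdia3 was lower in liver than in spleen (−0.36 ± 0.12, edgeR adjusted p 0.0308), and Tapbpl was higher in liver than in lymph node (0.79 ± 0.13, adjusted p 1.06e-05). Of the list, 1 rose and 1 fell in liver against spleen, and 2 rose and 0 fell in liver against lymph node, of 7 genes in each, where 25.7% and 37.6% of all genes tested were called. Of 12 factors that act on class I promoters, 3 were higher and 1 lower in liver against spleen, a share near that of all genes, and DESeq2 called 1 of the 12. Irf1, an interferon-induced activator, was higher in liver than in spleen and lymph node (log2 0.82 ± 0.13 and 1.37 ± 0.13, edgeR adjusted p 2.7e-05 and 1.39e-09). Irf2, known to compete with it, was lower in liver than in spleen (−0.33 ± 0.11, edgeR adjusted p 0.0292).

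Of 20 interferon response genes outside the gate list, 11 were higher and 1 lower in liver against spleen (median log2 0.45; 12.7% of all genes as higher), and 15 were higher and 1 lower against lymph node (median 0.60; 18.0% as higher). DESeq2 called 8 and 15 of them. Mx1 (1.69 ± 0.34), Gbp3 (1.09 ± 0.25) and Irgm2 (1.02 ± 0.20) were among those higher than in spleen (edgeR, adjusted p 0.000367, 0.00343 and 0.000266), and Irf7 was the lower one (−0.32 ± 0.12, adjusted p 0.0396), named after its values were seen. Oasl2 went against the list, at −2.18 ± 0.21 in liver over lymph node (edgeR, adjusted p 3.9e-10). Inside the interferon gate all 20 were higher (median 1.69), with Mx1 at 3.82 ± 0.28 and Iigp1 at 2.85 ± 0.14 (edgeR, adjusted p 2.46e-40 and 1.96e-69).

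Of the other class I-like heavy chains, 6 of 15 passed the filter. They went in both directions, with 1 higher and 3 lower in liver against spleen (median log2 −0.51) and 1 higher and 2 lower against lymph node (median 0.08), where DESeq2 called 1 and 3 and gave H2-M5 no adjusted p against spleen. Cd1d1, which presents lipids to iNKT cells, was lower in liver, with a mean of 21.8 CPM against 39.0 in spleen and 49.3 in lymph node (log2 −0.84 ± 0.16 and −1.18 ± 0.16, edgeR adjusted p 0.000254 and 3.36e-07). It did not follow the interferon gate (0.01 ± 0.25, adjusted p 0.997). H2-Q10, a class Ib gene of liver cells, was higher in liver than in spleen (0.76 ± 0.24, edgeR adjusted p 0.0189), while the 4 hepatocyte markers summed to 24 and 10 UMIs in liver and 6 to 15 in each other library, and their part in the result was not tested. MHC class II genes, 5 of 7 of which were tested, gave 0 higher and 1 lower in each liver comparison, both times H2-DMa (−0.45 ± 0.15 against spleen and −0.50 ± 0.15 against lymph node, edgeR adjusted p 0.0244 and 0.00802), a share below that of all genes (25.7% and 37.6%), and DESeq2 called it only against lymph node.

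Within the gates the lists moved as follows. In type 17 against type 1 gate cells, where 12.0% of all genes tested were called and 7.41% as lower, all 5 immunoproteasome genes were lower in edgeR and 2 in DESeq2 (median log2 −0.49), Psmb9 by −0.67 ± 0.14 (edgeR, adjusted p 4.5e-05). Of 17 interferon response genes tested 8 were lower and 0 higher (median −0.70; DESeq2 called 6), among them Iigp1, a GTPase induced by interferon, with −2.78 ± 0.46 and Irf7, a factor of the interferon response, with −1.28 ± 0.21 (edgeR, adjusted p 4.5e-08 and 5.62e-08). Of 7 peptide loading genes 3 were lower, Tapbpl, Tapbp and Tap2, the partner of Tap1, with −0.65 ± 0.22, −0.46 ± 0.13 and −0.44 ± 0.15 (edgeR, adjusted p 0.0316, 0.00456 and 0.0388), but DESeq2 called 0 of the 7. H2-M3, a class Ib gene that presents formylated peptides, had −1.01 ± 0.23 (edgeR, adjusted p 0.000273), a call that DESeq2 did not make. In emigrant against type 1 gate cells edgeR called 0 of 5 immunoproteasome, 0 of 15 interferon response and 0 of 7 peptide loading genes (median log2 −0.10, −0.32 and −0.24), beside 3.23% of all genes tested. At an unadjusted p under 0.05 there were 1, 1 and 2 of them, and DESeq2 also called 0.

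Inside the interferon gate, where 3.83% of all genes tested were called and 2.86% as higher, all 5 immunoproteasome genes were higher, Psmb10 by 0.58 ± 0.07 and Psmb9 by 0.55 ± 0.07 (edgeR, adjusted p 4.81e-16 and 1.25e-11). Tapbp, which bridges TAP and empty class I molecules, was higher by 0.67 ± 0.07 and its relative Tapbpl by 0.55 ± 0.13 (edgeR, adjusted p 8.3e-19 and 0.000935), as 2 of 7 peptide loading genes. Of 12 promoter factors 3 were higher and 9 were not called (median 0.19), Irf2 (0.68 ± 0.11) and Irf1 (0.56 ± 0.11) being among those higher (edgeR, adjusted p 1.78e-08 and 1.66e-05). H2-T24, a class Ib gene, was the 1 of 5 other heavy chains called (2.15 ± 0.37, edgeR adjusted p 2.67e-07).

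In the type 1 gate Irf1 was higher in liver than in spleen (0.76 ± 0.14) and lymph node (1.15 ± 0.18; edgeR, adjusted p 0.000162 and 6.41e-06). Of 20 interferon response genes 10 were higher and 1 lower in liver against spleen (10.7% of all genes as higher), and 7 were higher and 1 lower against lymph node (7.63% as higher), where DESeq2 called only 4 in each. The immunoproteasome list gave 0 calls in liver against spleen in edgeR (median −0.05; 1 at an unadjusted p under 0.05) and in DESeq2, and 4 of 5 higher in liver against lymph node (median 0.42; DESeq2 called 3).

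Receptors for class I molecules showed 8 of 11 genes tested as higher and 0 lower in liver against lymph node (median log2 1.74), where 37.6% of all genes tested were called. In liver against spleen 4 of the 11 were higher and 1 lower (median 0.01; 25.7% of all genes called). Klrd1 and Klrk1 of this list also define the type 1 gate and are left out of its counts. Of the 9 others, in type 1 gate cells, 3 were higher and 1 lower against lymph node (17.8% of all genes called), and 3 were higher and 2 lower against spleen (21.6%). Klrc1, which encodes the NKG2A receptor for the Qa-1 product of H2-T23, ranged from 299 to 335 CPM in liver, 173 to 176 in spleen and 46.1 to 52.8 in lymph node (log2 0.86 ± 0.11 over spleen and 2.68 ± 0.13 over lymph node, edgeR adjusted p 1.52e-06 and 1.18e-17). H2-T23 itself moved by far less between these organs. Klra3 went the other way in liver against spleen (−1.01 ± 0.17, edgeR adjusted p 5.42e-05).

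The genes outside the list of members whose profile over the 6 libraries was nearest were named by a fixed rule, the smallest root mean square difference of centred log2 CPM among 5858 genes. For H2-K1 they were Rps6ka1 (0.0538), Itgal (0.0635), Hvcn1, Slfn8 and Akna. H2-Q7 was nearest to Adgre5 (0.107), Serpina3g (0.111), Padi2, Gimap3 and Cd38. Those of B2m were Grwd1 (0.0593), Rtp4 (0.0750), Ssb, 2810428I15Rik and Pinx1, and those of Nlrc5 were Kbtbd11 (0.158), Il4ra (0.179), Eef1a1, AU020206 and Cish. None of the 5 nearest of any of these 4 genes was among the nearest of another. With 6 libraries in 3 organs such likeness mostly restates the order of the organs and is given as a description.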

How the data were processed

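Single iNKT cells from 3 organs (2 libraries each) were profiled with 10x 3′ chemistry, and the labels give the molecule as nuclear RNA, while the study's methods describe whole sorted cells, so which RNA was captured is unsure. The authors counted UMIs with Cell Ranger 3.1.0 on mm10, and the deposited count matrices hold raw UMI counts per gene and cell; the version of the gene annotation is not given in the sources used here. The submitters' processing notes also name Seurat, whose output was not used here.

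Cells with 300 to 4000 genes and at most 15% mitochondrial UMIs were kept (16532 of 16587 barcodes, 4758138 to 10870838 UMIs per library), and 189 ribosomal and haemoglobin genes, 24.2% to 35.7% of UMIs, were left out. No doublet caller was used for the main values. UMIs were summed per library, or per library and gate for sums of at least 10 cells, and tested with edgeR 4.0.16 (filterByExpr, TMM, robust quasi-likelihood fit) in R 4.3.3, with Benjamini-Hochberg adjustment over all genes tested and a threshold of 0.05. Gates were read after thinning each cell to 1000 UMIs with a fixed seed. Comparisons of cell sets within libraries had library as a block, and the gate genes were left out of the background counts. The fit was tested on simulated data for liver over spleen in whole libraries. It called 75 of 99 genes with a true log2 change of 1 in size, 19 of 99 at 0.5 and 4 of 9798 at 0. Differences near log2 0.5 or below can therefore go uncalled. P-values rest on the spread between 2 libraries per organ, and for comparisons of cell sets on that of the differences within libraries. Where an organ has 1 library, it is assumed to vary like the others.

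Members, lists and tests were chosen with earlier results of these data known. Genes named outside the members come from the up to 4 called genes per list and comparison with the largest changes, exceptions being stated, and the 5 nearest in profile among genes of at least 20 CPM. Alternatives changed the scaling, filters, tool (DESeq2 1.42.0), thinning, gate limit and libraries. Some genes of the gates and lists entered the computation but are not reported here.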

Additional observations from a re-analysis of the deposited data

How the results depend on the processing

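All settings were run for the 10 members and the counts of all genes called, while for the pathway lists the report gives only the counts with DESeq2. With DESeq2 the calls for peptide loading genes in type 17 against type 1 fell from 3 to 0 and those for the immunoproteasome from 5 to 2. Of the genes named for liver against spleen, DESeq2 did not call Pdia3, Irf2, Irf7, H2-Q10 or H2-DMa. No member that passed its test changed direction under these settings, and the counts of members called moved as follows. In the type 1 gate, liver against lymph node gave 5 calls in the main test, 3 with DESeq2, 3 with thinned UMIs and 2 to 6 with 1 library left out, the lowest without lymph node replicate 2. Spleen against lymph node in that gate gave 0, and 1 without the filter on low counts, with 0 to 1 when a library was left out. In the type 17 gate, liver against lymph node gave 2 calls, and 0 to 2 with a library left out. The emigrant gate gave 5 and, with a library left out, 3 to 5. Whole libraries gave 7 in each case for liver against spleen, 7 to 9 for liver against lymph node and 2 to 4 for spleen against lymph node with a library left out. Type 17 against type 1 gave 7 to 9, the interferon gate 7 to 8 and liver against spleen in the type 1 gate 4 to 8.

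Replicate numbers are shared between the organs, but deviations of equal numbers from the organ means correlated at only 0.0982, 0.0826 and 0.0750, so the numbers were not taken as pairs. With the replicate block, members called were 8, 8 and 4 in whole libraries, 9, 6 and 1 in the type 1 gate and 1, 3 and 0 in the type 17 gate.

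The class Ib ratio moved to 0.161, 0.122 and 0.139 (liver, spleen, lymph node) without H2-Q6 and H2-Q7 and to 0.746, 0.640 and 0.665 over H2-K1 alone. Thinned to 800 UMIs and rescaled, cells held 2.11 UMIs of H2-K1 in liver and 2.78 of H2-D1 in lymph node.

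Counts of all genes called were lower with DESeq2, at 1423 from 2611 (liver against spleen) and 1126 from 1861 (spleen against lymph node) in whole libraries, at 766, 952 and 328 from 2058, 1694 and 568 in the type 1 gate, at 294 from 778 for type 17 against type 1, at 79 from 150 for the emigrant gate and at 211 from 324 for the interferon gate. These counts with thinned UMIs were 1648 for liver against spleen in whole libraries, 374 for type 17 against type 1 and 181 for the interferon gate. Within the type 17 gate the 3 organ comparisons called 24, 120 and 26 genes, thinned UMIs 5, 42 and 8, DESeq2 12 for the first and 13 for the last, and no filter 10 for the first and 263 for the second. Without a filter the emigrant gate called 253. With 3 gate genes the type 1 gate called 896 for liver against lymph node and 282 for spleen against lymph node. With a library left out, whole libraries called 1372 to 2405, 2408 to 4030 and 1025 to 1933 genes. With lymph node libraries alone, added after seeing the data, type 17 against type 1 gave 1184. With DESeq2 Nlrc5 lost its call in type 17 against type 1 (adjusted p 0.137). Without TMM the median log2 fold change of all genes for liver over spleen moved from 0.02 to 0.10. At least 3 genes per gate left too few cells for the type 17 organ comparison and the emigrant gate, which were not run at that setting. Low UMI counts limit Nlrc5 in every gate, and the liver and spleen cells of the type 17 gate, 11 to 18 per library, limit what can be said of those organs.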
